A study of Mus musculus with 8 samples.

Results

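The 10 genes described here code for serine hydrolases that organophosphates can inhibit and for paraoxonases that break organophosphates down. They were taken by symbol: the cholinesterases Ache and Bche, the lysophospholipases Pnpla6, Pnpla7 and Lypla1, the endocannabinoid hydrolases Faah and Mgll, and the paraoxonases Pon1, Pon2 and Pon3. Of these 10, 9 had a row among the 21692 genes of the deposited table, and Pon1 was not analysed here. All 9 passed the filter on low counts, which left 15517 genes to test.

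RNA was sequenced from forelimb buds of CD1 mouse embryos, taken at gestation day 13 and then grown in culture for 24 h. The OPE group was exposed to a mixture of organophosphate esters, compounds used as flame retardants and plasticisers, that was modelled on Canadian house dust and diluted 1 in 300000. The vehicle group received only the solvent dimethyl sulfoxide (DMSO). Each group had 4 libraries, OPE 1 to 4 and vehicle 1 to 4; the labels name no allele, no components of the mixture and no litter or pooling of buds, so a p-value here speaks only of how these samples vary, and some of that variation may be technical.

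Organophosphates inhibit serine hydrolases by attaching their phosphorus to the serine in the active site, which the enzyme otherwise uses to attack its substrate. Acetylcholinesterase, the product of Ache, ends signalling at cholinergic synapses such as the neuromuscular junction, and its inhibition is the classic acute toxic action of these compounds. Paraoxonases take the opposite part, since they are calcium-dependent hydrolases and lactonases of which PON1, carried in blood, splits the active oxon forms of several organophosphates. The data here are messenger RNA levels of whole buds; enzyme activity was not measured, and fewer cells of a type and less RNA per cell cannot be told apart.

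The reads counted to genes summed to between 14986793 and 21806141 in the OPE libraries and to between 17549560 and 22006738 in the vehicle libraries. OPE 3 stood apart: its counts differed from those of the other OPE libraries by a chi-square per degree of freedom of at least 39.8, while other pairs within a group gave between 4.80 and 17.4. It was farthest from OPE 1 (69.8). For the 9 genes and the genes of smallest p in the lists below, values without both are given where that moves a log2 fold change by over 1.5 times. The cartilage and limb mesenchyme that the tissue label implies were present in every library, with 9503 to 10640 CPM in OPE and 9616 to 11283 CPM in vehicle libraries summed over 11 cartilage markers (CPM, a gene's reads scaled to a common library total). The 11 mesenchyme markers summed to 1545 to 1765 CPM in OPE and 1534 to 1620 CPM in vehicle libraries. Skeletal muscle markers summed to 2796 to 4323 CPM in OPE and 3441 to 3939 CPM in vehicle libraries. Macrophage markers, by contrast, summed to 34.8 to 94.3 CPM in OPE and 182 to 218 CPM in vehicle libraries. All 13 tested had log2 fold changes below 0 and an unadjusted p below 0.05 in edgeR. Of these 7 passed an adjusted p of 0.05 in edgeR, against 0.477% of all genes tested, and DESeq2 and limma-voom each called 8. Endothelial markers summed to 137 to 256 CPM in OPE and 287 to 353 CPM in vehicle libraries. Of the 10 tested 9 had log2 fold changes below 0. Flt1 was past the threshold in edgeR and limma-voom, and Cdh5, Flt1 and Pecam1 were in DESeq2. At an unadjusted p of 0.05 in edgeR 6 of the 10 passed, against 13.2% of all genes tested.

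The serine that organophosphates attack lies in a short motif that can be read in the coding sequence of 6 of the 9 genes. The lines give 39 bases around it, 5′ to 3′ on the coding strand, from GENCODE M21 transcripts on GRCm38 (mm10), with the serine codon in capitals. They are shown because they are the target sites themselves and show how alike the related genes are there. Faah belongs to another family, with its serine in a different motif, and paraoxonases act through calcium rather than a serine, so none is shown for them.
Ache: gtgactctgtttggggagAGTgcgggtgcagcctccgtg
Bche: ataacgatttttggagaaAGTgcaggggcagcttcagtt
Pnpla6: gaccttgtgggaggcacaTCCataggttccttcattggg
Pnpla7: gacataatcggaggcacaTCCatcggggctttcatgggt
Lypla1: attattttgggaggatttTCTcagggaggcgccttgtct
Mgll: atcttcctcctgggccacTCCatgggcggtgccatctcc
The site of Ache is at chr5:137290715-137290753 on the plus strand in exon 2, with the serine at codon 234, and that of Bche at chr3:73701393-73701431 on the minus strand in exon 2, at codon 227. The sites of Pnpla6 (chr8:3536918-3536956, plus strand, exon 27, codon 984) and Pnpla7 (chr2:25047663-25047701, plus strand, exon 26, codon 983) also each lie in 1 exon. Those of Lypla1 (chr1:4837051-4839401, exons 6 and 7, codon 119) and Mgll (chr6:88808124-88809350, exons 4 and 5, codon 122), both on the plus strand, are joined across an intron.

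The motif matched at codons 83 and 122 of Mgll, and the known catalytic serine, at codon 122, is the one printed. It also matched at codons 217 and 218 of Faah, which are not printed. Both cholinesterases spell the catalytic serine AGT, whereas the other 4 sites printed use TCC or TCT. Between Ache and Bche 27 of the 39 bases were identical, and between Pnpla6 and Pnpla7 29 of 39. Over their aligned coding sequences, Ache and Bche shared 57.6% of bases with a longest identical run of 17 bases, Pnpla6 and Pnpla7 shared 66.9% with a run of 21, and Pon2 and Pon3 shared 66.3% with a run of 14.

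The clearest difference among the 9 genes was in Ache, whose messenger RNA was more abundant in all 4 OPE libraries than in any vehicle library, with a fitted ratio of 1.46. It narrowly missed the threshold over all genes (edgeR adjusted p = 0.0522). For the other 8 the groups overlapped. Of these, Mgll, Pon2, Pon3 and Bche had lower means with OPE, by log2 fold changes of -0.60 to -0.25, while Pnpla6, Pnpla7, Lypla1 and Faah lay between -0.04 and 0.14. In edgeR 0 of the 9 passed an adjusted p of 0.05, against 0.477% of the genes tested, 0.0387% being higher with OPE. At an unadjusted p of 0.05, 2 of the 9 passed, Ache and Mgll, against 13.2% of the genes tested. DESeq2 and limma-voom each called 1 of the 9, Ache in both, against 3.11% of the genes with an adjusted p in DESeq2 and 0.651% of those tested in limma-voom. The ranges of the groups did not overlap for 1 of the 9, against 9.49% of the genes tested, of which 4.05% were higher and 5.44% lower with OPE. Of the 9 log2 fold changes 3 were above 0 and 6 below, with a median of -0.04; over all genes tested the median was 0.01, with the 5th and 95th percentiles at -0.58 and 0.43.

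**Figure D1:**
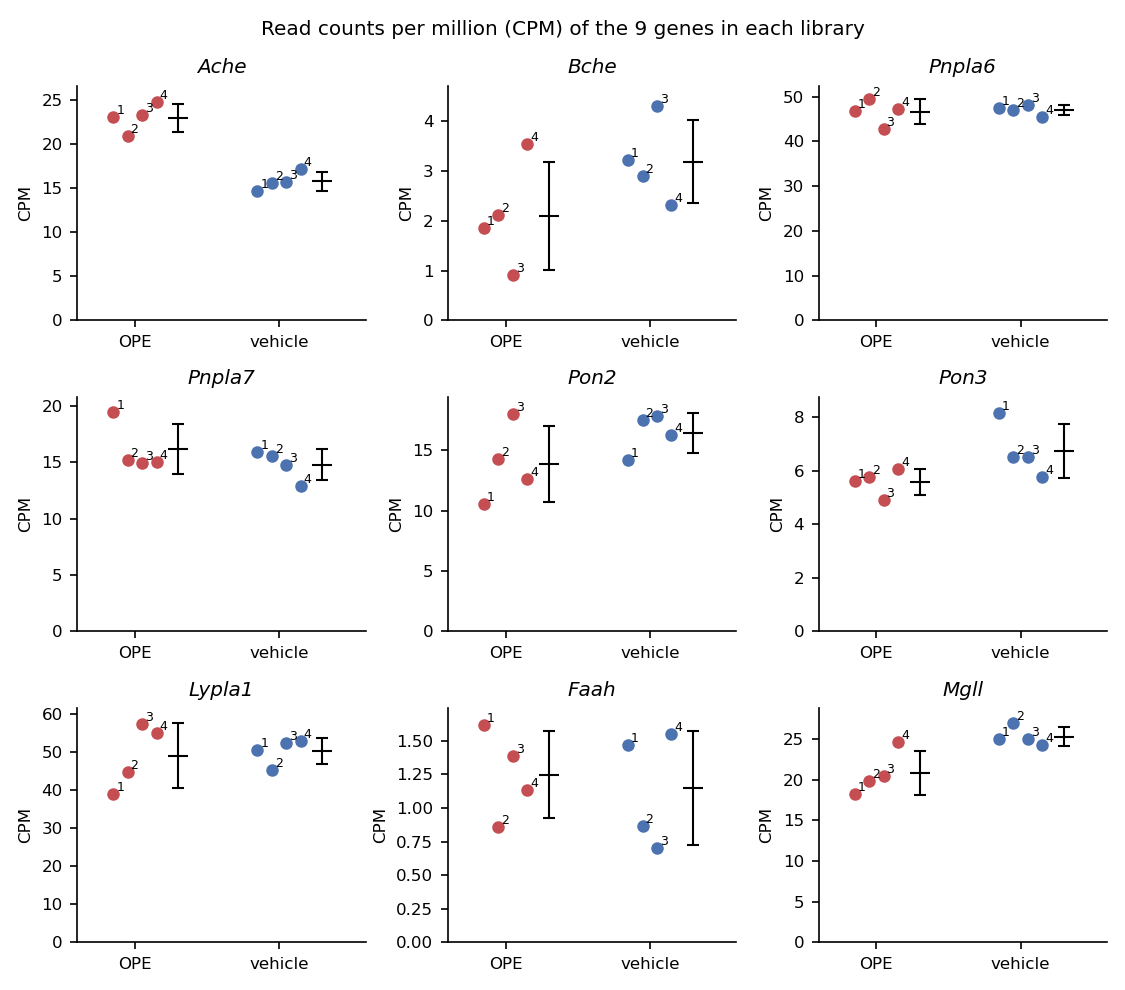
CPM of each gene (vertical axes, each starting at 0) in the OPE libraries (red, left) and the vehicle libraries (blue, right); numbers are replicate numbers and the black bars give the mean and SD of 4 libraries. Ache is the only gene whose groups do not overlap, with OPE at 20.9 to 24.8 and vehicle at 14.6 to 17.1 CPM.

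Ache (chr5:137287519-137294466, plus strand) had 23.0, 20.9, 23.2 and 24.8 CPM in OPE 1 to 4, against 14.6, 15.6, 15.6 and 17.1 CPM in vehicle 1 to 4. The lowest OPE library was thus above the highest vehicle library. The means were 23.0 ± 1.59 CPM with OPE and 15.7 ± 1.04 CPM with vehicle (SD, n = 4 each). The log2 fold change was 0.55 ± 0.11 (SE), with a 95% interval from 0.31 to 0.78 (edgeR adjusted p = 0.0522, unadjusted p = 0.000302). An unadjusted p this small or smaller was found for 0.574% of the genes tested. The values rest on 259 to 498 reads per library, 1521 reads in the OPE group and 1284 in the vehicle group.

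Whether Ache passed depended on the test, while its size hardly moved. Over 17 other ways of testing the log2 fold change lay between 0.49 and 0.61, and the adjusted p between 0.000426 and 0.175. Ache passed in 4 of them: DESeq2 (0.55, adjusted p = 0.000426), limma-voom (0.54, adjusted p = 0.0477), edgeR with offsets for gene length (0.61, adjusted p = 0.0153, where 2.08% of all genes passed) and edgeR without OPE 3 (0.54, adjusted p = 0.0273). Without both OPE 1 and OPE 3 the edgeR value was 0.54 (adjusted p = 0.0837). The authors' deposited table gives Ache a log2 fold change of 0.50 with an adjusted p of 0.000458. Of the genes with an adjusted p in the authors' deposited table, 2.68% are below 0.05.

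**Figure D2:**
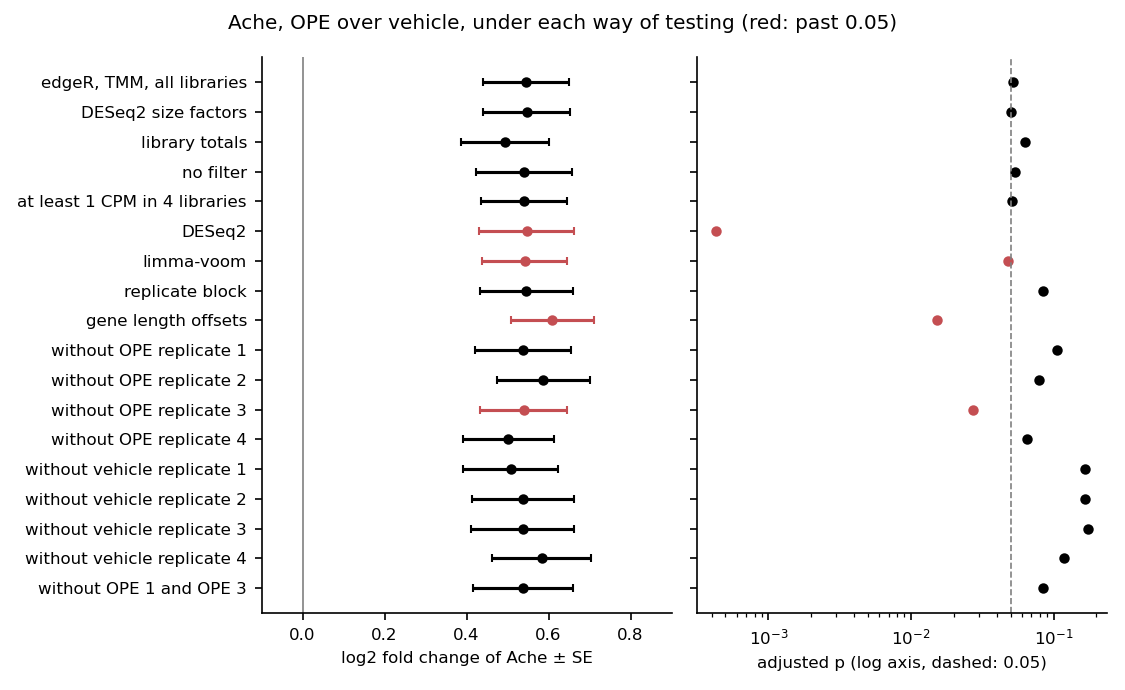
Log2 fold change of Ache, OPE over vehicle, with its SE (left) and its adjusted p on a log axis (right) under the main edgeR fit and 17 alternatives; red marks an adjusted p below 0.05, the dashed line. The fold change stays between 0.49 and 0.61 in every row while the adjusted p runs from 0.000426 to 0.175.

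Ache is expressed by muscle, by neurons and by red blood cells, so the markers of these cells are given beside it. None of the 15 muscle markers tested passed (edgeR), with 7 log2 fold changes above 0 and 8 below, and the summed ranges given above overlapped. The nerve and Schwann cell markers summed to 93.1 to 112 CPM in OPE and 97.4 to 107 CPM in vehicle libraries, and 0 of 11 tested passed. The erythroid markers summed to 1127 to 2638 CPM in OPE and 999.5 to 1481 CPM in vehicle libraries, and 0 of 8 passed. At an unadjusted p of 0.05 in edgeR, 6 of the 15 muscle, 1 of the 11 nerve and 0 of the 8 erythroid markers would pass. The share over all genes tested was 13.2%. DESeq2 called 3 muscle markers, Chrna1 higher and Myh8 and Pax7 lower, and limma-voom called Myh8 lower; neither called a nerve or erythroid marker. The part of these cells in the Ache difference was not tested.

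Bche (chr3:73635808-73708415, minus strand) codes for butyrylcholinesterase, which splits a wider range of choline esters and can bind organophosphates before they reach acetylcholinesterase. It had 1.85, 2.12, 0.902 and 3.53 CPM in OPE 1 to 4, against 3.22, 2.91, 4.31 and 2.31 CPM in vehicle 1 to 4. OPE 1, 2 and 3 lay below every vehicle library and OPE 4 above 3 of them, so the groups overlapped. This gave a log2 fold change of -0.60 ± 0.35, with a 95% interval from -1.37 to 0.17 (edgeR adjusted p = 0.506). It was -0.37 without OPE 3, -0.96 without OPE 4 and -0.17 without OPE 1 and OPE 3 (edgeR adjusted p = 0.549, 0.189 and 0.932). With 13 to 92 reads per library, this gene was measured thinly: 138 reads with OPE and 258 with vehicle gave a depth-scaled ratio of 0.656, with an exact binomial 95% interval from 0.530 to 0.810 that covers counting error only. The cholinesterases thus had fold changes of opposite sign, neither past the threshold.

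**Figure D3:**
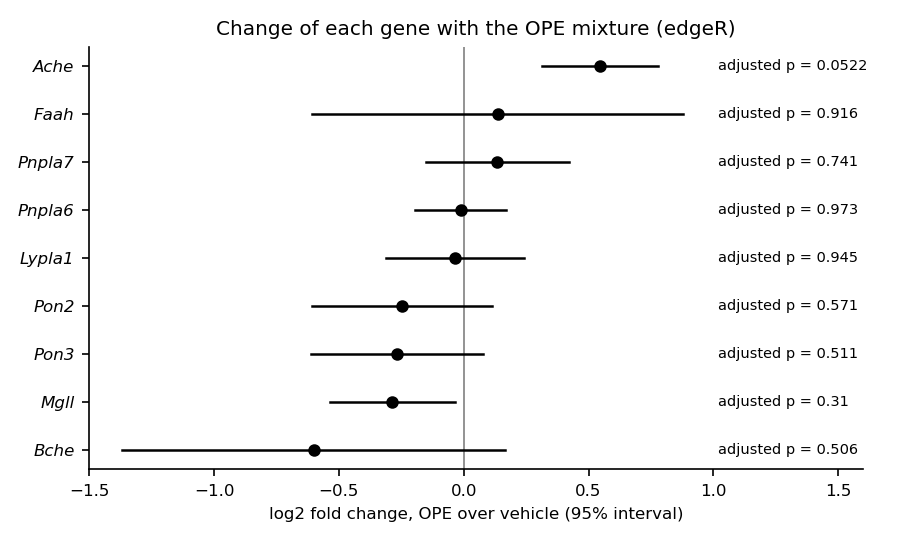
Log2 fold change of each gene, OPE over vehicle, with its 95% interval (horizontal axis) and its edgeR adjusted p (right), ordered from the highest to the lowest value. The intervals of Ache (0.31 to 0.78) and Mgll (-0.53 to -0.04) leave out 0; those of Bche and Faah, the genes with fewest reads, are the widest.

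Pnpla6 (chr8:3515384-3544266, plus strand) codes for neuropathy target esterase, a phospholipase of the endoplasmic reticulum whose inhibition by some organophosphates, triaryl phosphates among them, leads to delayed nerve damage. It had 46.8, 49.6, 42.9 and 47.3 CPM in OPE 1 to 4, against 47.6, 47.0, 48.1 and 45.5 CPM in vehicle 1 to 4. The OPE values lay on both sides of the vehicle range, with OPE 2 highest and OPE 3 lowest of all 8. Its log2 fold change of -0.01 ± 0.08 had the narrowest interval of the 9 genes, from -0.19 to 0.17 (edgeR adjusted p = 0.973). Its sign turned without OPE 3 (0.03), without OPE 1 and OPE 3 (0.04) and with offsets for gene length (0.06).

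Pnpla7 (chr2:24976033-25054057, plus strand), a related lysophospholipase, had 19.5, 15.2, 15.0 and 15.1 CPM in OPE 1 to 4, against 15.9, 15.6, 14.8 and 12.9 CPM in vehicle 1 to 4. OPE 1 stood above all other libraries, and the other 3 OPE libraries lay within the vehicle range. Its log2 fold change was 0.13 ± 0.13, with a 95% interval from -0.15 to 0.42 (edgeR adjusted p = 0.741). It was 0.02 without OPE 1, 0.07 without vehicle 4 and 0.04 without OPE 1 and OPE 3.

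Lypla1 (chr1:4807788-4886770, plus strand) codes for acyl-protein thioesterase 1, which takes palmitate off proteins and also splits lysophospholipids. It had 39.1, 44.9, 57.5 and 55.0 CPM in OPE 1 to 4, against 50.5, 45.3, 52.3 and 53.0 CPM in vehicle 1 to 4. OPE 1 and 2 were below all vehicle libraries and OPE 3 and 4 above them, so that the OPE libraries split to both sides. The log2 fold change was -0.04 ± 0.13, with a 95% interval from -0.31 to 0.24 (edgeR adjusted p = 0.945). The sign turned without OPE 1 (0.05), without OPE 2 (0.0035) and with offsets for gene length (0.05). Without OPE 1 and OPE 3 the value was -0.0086.

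Mgll (chr6:88724412-88828360, plus strand) codes for monoacylglycerol lipase, which degrades the endocannabinoid 2-arachidonoylglycerol. It had 18.2, 19.9, 20.4 and 24.6 CPM in OPE 1 to 4, against 25.0, 27.0, 25.0 and 24.2 CPM in vehicle 1 to 4. OPE 1, 2 and 3 were below the vehicle range, and OPE 4 was above the lowest vehicle library. The means were 20.8 ± 2.70 CPM with OPE and 25.3 ± 1.19 CPM with vehicle (SD, n = 4 each). The log2 fold change was -0.29 ± 0.11, with a 95% interval from -0.53 to -0.04 (edgeR adjusted p = 0.310, unadjusted p = 0.0285). It did not pass in any of the 17 alternatives, where it lay between -0.38 and -0.18 with adjusted p from 0.117 to 0.674; the -0.18 was without OPE 1 and OPE 3. On the deposited FPKM scale, which divides by the raw total, all 4 OPE libraries (4.54 to 6.17) were below the vehicle libraries (6.20 to 6.90). The authors' deposited table gives Mgll -0.25 with an adjusted p of 0.266. Monoacylglycerol lipase is made by adipocytes and macrophages among other cells. Adipocyte markers summed to 2.40 to 4.30 CPM in OPE and 3.84 to 8.52 CPM in vehicle libraries. Only 2 of them were tested, and their log2 fold changes had opposite signs. Fabp4 was at -1.43 ± 0.39 (edgeR adjusted p = 0.135) and Pparg at 0.31 ± 0.40 (edgeR adjusted p = 0.816). DESeq2 called Fabp4 lower. The macrophage sums above were lower with OPE, and the part of adipocytes and macrophages in the Mgll values was not tested.

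Faah (chr4:115967145-116017926, minus strand) codes for fatty acid amide hydrolase, which degrades the endocannabinoid anandamide. It had 1.62, 0.860, 1.39 and 1.13 CPM in OPE 1 to 4, against 1.47, 0.867, 0.702 and 1.55 CPM in vehicle 1 to 4. The ranges of the groups nearly coincided. With 13 to 35 reads per library, the log2 fold change of 0.14 ± 0.34 had a 95% interval from -0.61 to 0.88 (edgeR adjusted p = 0.916), and its sign turned without OPE 1 (-0.03), without vehicle 3 (-0.05) and without OPE 1 and OPE 3 (-0.20). That interval takes in changes of either sign.

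Pon2 (chr6:5264147-5298455, minus strand) codes for a paraoxonase that stays inside cells, where it acts as a lactonase. It had 10.6, 14.3, 18.0 and 12.7 CPM in OPE 1 to 4, against 14.2, 17.5, 17.9 and 16.2 CPM in vehicle 1 to 4. OPE 1 and 4 were below the vehicle range, while OPE 3 was the highest of all 8 libraries. The fitted log2 fold change was -0.25 ± 0.16, with a 95% interval from -0.61 to 0.11 (edgeR adjusted p = 0.571). It was -0.14 without OPE 1, -0.40 without OPE 3 and -0.29 without both (edgeR adjusted p = 0.745, 0.140 and 0.503).

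Pon3 (chr6:5220852-5256286, minus strand) lies 7860 bases from Pon2 on the same strand and codes for another paraoxonase with lactonase activity. It had 5.63, 5.76, 4.92 and 6.06 CPM in OPE 1 to 4, against 8.18, 6.53, 6.51 and 5.77 CPM in vehicle 1 to 4. OPE 1, 2 and 3 were below every vehicle library, by a narrow margin in OPE 2. For Pon3 the log2 fold change was -0.27 ± 0.16, with a 95% interval from -0.61 to 0.08 (edgeR adjusted p = 0.511), and without vehicle 1 it was -0.17. The fold changes of the neighbours were of similar size, although their libraries did not follow the same order: OPE 3 was highest for Pon2 and lowest for Pon3.

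To compare the genes with one another, the deposited FPKM, reads scaled by gene length and by library total, were used as levels. In vehicle libraries the order was Lypla1 (11.5 ± 0.795), Pnpla6 (10.6 ± 0.201), Mgll (6.44 ± 0.310), Pon2 (6.22 ± 0.649), Ache (4.34 ± 0.311), Pon3 (3.41 ± 0.495), Pnpla7 (3.26 ± 0.288), Bche (0.521 ± 0.135) and Faah (0.211 ± 0.0783), each an FPKM with its SD over 4 libraries. The highest level, that of Lypla1, was at the 70.9th percentile of all rows of the table, and the lowest, that of Faah, at the 23.8th. Of neighbours in this order, the library ranges overlapped for Lypla1 and Pnpla6, Mgll and Pon2, Ache and Pon3, and Pon3 and Pnpla7. They were separate between Pnpla6 and Mgll, Pon2 and Ache, Pnpla7 and Bche, and Bche and Faah. Acetylcholinesterase RNA was thus at 4.34 FPKM against 0.521 FPKM for butyrylcholinesterase RNA.

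In the OPE libraries Lypla1 (10.8 ± 1.70 FPKM) and Pnpla6 (10.2 ± 0.944 FPKM) again had the highest means, and Ache followed in place 3 at 6.12 ± 0.460 FPKM, ahead of Mgll (5.11 ± 0.729 FPKM) and Pon2 (5.04 ± 0.981 FPKM); in vehicle libraries Ache was in place 5. Pnpla7 (3.45 ± 0.515 FPKM), Pon3 (2.73 ± 0.323 FPKM), Bche (0.335 ± 0.179 FPKM) and Faah (0.221 ± 0.0559 FPKM) came after them.

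These levels depend on the length used. For 6 genes the deposited length equals that of a transcript which is not coding: one with a retained intron for Ache, Pon2, Lypla1 and Faah, and one marked for nonsense-mediated decay for Pnpla7 and Pon3. With the longest coding transcript in its place, a choice made after seeing the data, the vehicle means became 7.32 FPKM for Ache, 6.95 for Pon2, 20.4 for Lypla1 and 0.305 for Faah, and Ache came before Pon2 and Mgll. The length of a gene is the same in every library, so its fold change does not depend on this choice in fits that use no length. The fit with offsets for gene length used the deposited lengths.

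**Figure D4:**
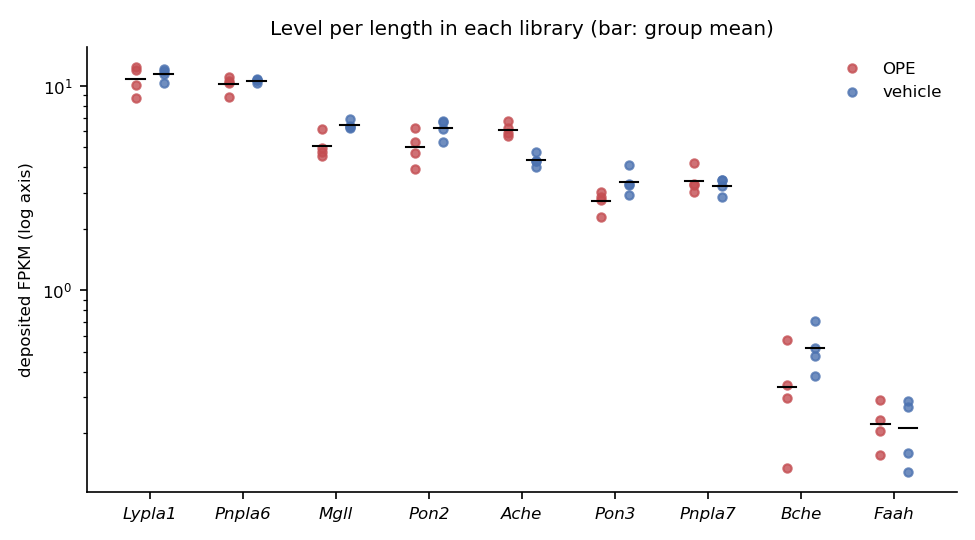
Deposited FPKM (log axis) of each gene in the OPE libraries (red, left of each pair) and the vehicle libraries (blue, right), with bars at the group means; genes are ordered by the vehicle mean. Lypla1 and Pnpla6 are highest at about 10 FPKM, Bche and Faah lie below 1 FPKM, and Ache is the gene whose OPE points all lie above its vehicle points.

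The libraries of the OPE group were more spread than those of the vehicle group for most of the 9 genes. The coefficient of variation was higher with OPE for 7 of the 9: 51.8% against 26.3% for Bche, 22.7% against 10.2% for Pon2, 17.6% against 6.95% for Lypla1, 13.6% against 9.25% for Pnpla7, 13.0% against 4.70% for Mgll, 6.92% against 6.61% for Ache, and 5.97% against 2.36% for Pnpla6. It was lower with OPE for Pon3 (8.60% against 15.1%) and Faah (26.1% against 37.1%). These differences in spread were not tested. Summed over the 9 genes, the OPE libraries held 166 to 190 CPM and the vehicle libraries 178 to 185 CPM.

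Of 36 genes of the cholinergic synapse 23 were tested, and 0 passed (edgeR; 3 at an unadjusted p of 0.05), with 10 log2 fold changes above 0, 13 below and a median of -0.03. DESeq2 called 1, Chrna1, and limma-voom 0. For this list and those below, the share of all genes tested at an unadjusted p of 0.05 in edgeR was 13.2%. The muscle receptor subunits Chrna1 and Chrng had the smallest p. Chrna1 had 69.6, 59.8, 87.0 and 76.6 CPM in OPE 1 to 4, against 47.8, 56.3, 52.9 and 55.8 CPM in vehicle 1 to 4. Its log2 fold change was 0.46 ± 0.12 (edgeR adjusted p = 0.117). Of the 23 tested it was the 1 without overlap between groups, against 9.49% of all genes tested. Chrng, the fetal gamma subunit, gave 0.37 ± 0.13 (edgeR adjusted p = 0.240), and its groups overlapped; without OPE 1 and OPE 3 it gave 0.15. Both also stand in the muscle marker list. Chrna4, a neuronal subunit, gave -0.45 ± 0.19 (edgeR adjusted p = 0.350). Other components of the junction lay on both sides of 0, and none of those named here passed in edgeR (log2 fold changes with SE). Above 0 were Nrg1 at 0.43 ± 0.30, Chrnb1 at 0.17 ± 0.11, Chrnd at 0.11 ± 0.12 and Rapsn, which clusters the receptors, at 0.15 ± 0.16. Below 0 were Musk at -0.35 ± 0.29, Dok7 at -0.09 ± 0.12, Lrp4 at -0.05 ± 0.14 and Agrn, which nerves release to start that clustering, at -0.01 ± 0.15. The genes of acetylcholine synthesis and vesicle loading, Chat and Slc18a3, had 10 and 24 reads over all 8 libraries. Prima1, which anchors acetylcholinesterase in neuronal membranes, had 71 reads, and none of these 3 was tested. The choline transporter Slc5a7, with 270 reads, was tested and gave -0.10 ± 0.35 (edgeR adjusted p = 0.943). Colq, which codes for the collagen tail that anchors the enzyme at the muscle junction, gave -0.29 ± 0.25 (edgeR adjusted p = 0.690).

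Among the other serine hydrolases, Lpl was the gene that fell. Lpl codes for lipoprotein lipase, which releases fatty acids from circulating triglycerides, and it had 16.8, 17.2, 16.3 and 17.9 CPM in OPE 1 to 4, against 34.4, 35.5, 38.2 and 34.8 CPM in vehicle 1 to 4. It was 1 of 59 tested from a list of 86, and its log2 fold change of -1.07 ± 0.09 passed in all 17 alternatives (edgeR adjusted p = 0.00235). The list had 32 log2 fold changes above 0 and 27 below, with a median of 0.02 and 7 genes at an unadjusted p of 0.05. DESeq2 also called Fap and Scpep1. Fap, a protease of activated fibroblasts, gave -0.58 ± 0.13 (edgeR adjusted p = 0.0730), and the carboxypeptidase Scpep1 gave 0.54 ± 0.13 (edgeR adjusted p = 0.0934). Without OPE 1 and OPE 3 Scpep1 gave 0.32. Of the 59 tested, the groups did not overlap for Scpep1 (1 higher with OPE) and for Fap and Lpl (2 lower). Over all genes tested that share was 9.49%. Lpl is also made by macrophages, whose markers fell, and by adipocytes, and their part in its fall was not tested. The carboxylesterases, serine hydrolases abundant in liver that organophosphates can inhibit, were scarcely detected. A row was present for 9 of 17, with 1 to 20 reads over all 8 libraries, and none was tested. Hepatocyte markers were near 0 too, with 0.266 to 0.902 CPM in OPE and 1.40 to 2.55 CPM in vehicle libraries summed over the 2 of 8 that had a row. Of these only Apoa1 was tested, and it was lower with OPE (log2 fold change -2.22 ± 0.40, edgeR adjusted p = 0.0452). DESeq2 and limma-voom also called it.

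Of the endocannabinoid genes around Faah and Mgll 17 of 21 were tested and 0 passed in edgeR (4 at an unadjusted p of 0.05), with 5 log2 fold changes above 0, 12 below and a median of -0.09. DESeq2 called 1, Ptgs2, and limma-voom 0. The genes of smallest p were Ptgs2, the inducible cyclooxygenase, at 1.43 ± 0.39 (edgeR adjusted p = 0.141), the phospholipase Pla2g4e at -0.71 ± 0.27 (edgeR adjusted p = 0.290), and the phosphodiesterase Gdpd1 at 0.33 ± 0.13 (edgeR adjusted p = 0.320), which was 0.11 without OPE 1 and OPE 3. Cnr1, the cannabinoid receptor of neurons, gave 0.19 ± 0.13 (edgeR adjusted p = 0.583). The counts of this list include Crip1, which is not an endocannabinoid gene, at -0.13 ± 0.22 (edgeR adjusted p = 0.871).

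Of the genes that handle foreign compounds 31 of 48 were tested and 0 passed in edgeR (3 at an unadjusted p of 0.05), with 15 log2 fold changes above 0, 16 below and a median of -0.02. DESeq2 and limma-voom each called 1, Cyp1b1. Cyp1b1, a cytochrome P450 induced through the aryl hydrocarbon receptor, had 37.5, 25.5, 32.7 and 32.0 CPM in OPE 1 to 4, against 18.1, 18.6, 23.0 and 18.4 CPM in vehicle 1 to 4. Like Ache it showed no overlap and narrowly missed the threshold (0.71 ± 0.13, edgeR adjusted p = 0.0516), and it passed in 7 of the 17 alternatives. Of the 31 tested it was the 1 without overlap, against 9.49% of all genes tested. Ephx1, an epoxide hydrolase, gave -0.53 ± 0.22 (edgeR adjusted p = 0.339), and Ahr, the receptor itself, -0.42 ± 0.18 (edgeR adjusted p = 0.357), or -0.28 without vehicle 1. Cyp1a1 gave 0.09 ± 0.23 (edgeR adjusted p = 0.917).

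The lysophospholipid and choline genes around Pnpla6, Pnpla7 and Lypla1 were all tested, 25 of 25, and 0 passed in edgeR (0 at an unadjusted p of 0.05, and 0 with DESeq2 or limma-voom). They had 11 log2 fold changes above 0, 14 below and a median of -0.01. Smallest in p were the acyltransferases Lpcat1 (-0.19 ± 0.09, edgeR adjusted p = 0.403) and Lpcat4 (-0.18 ± 0.10, edgeR adjusted p = 0.487), which turn lysophospholipids back into phospholipids, and the receptor Lpar1 (-0.16 ± 0.08, edgeR adjusted p = 0.448). Without OPE 1 and OPE 3 Lpcat1 gave -0.08. The groups did not overlap for 1 of the 25, Lpar1, lower with OPE, against 9.49% of all genes tested.

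**Figure D5:**
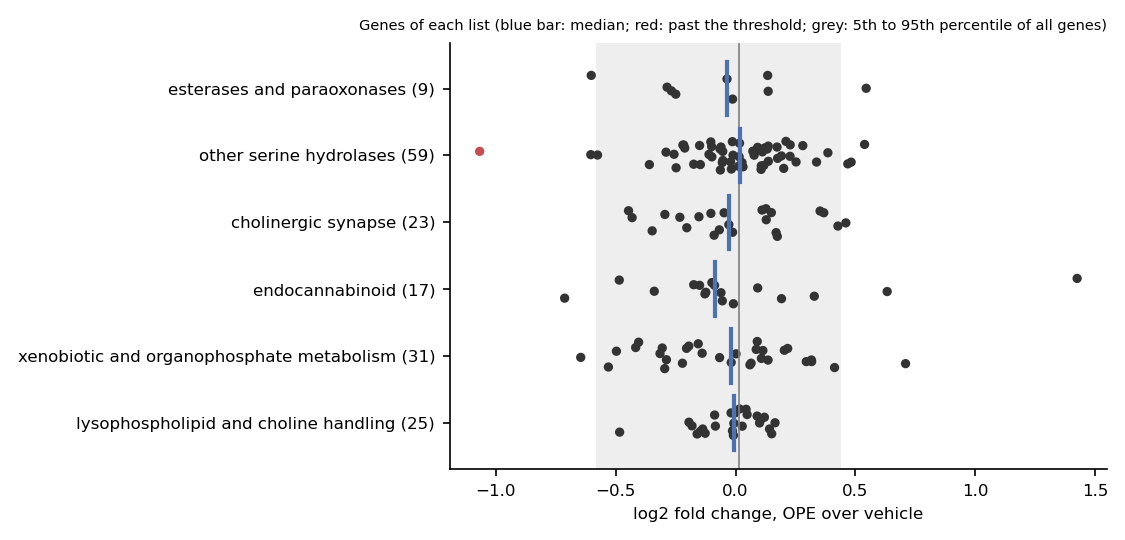
Log2 fold changes, OPE over vehicle, of the tested genes of each list (number in brackets), with the list median as a blue bar, the 5th to 95th percentile of all genes tested in grey, and genes past the threshold in red. Lpl at -1.07 is the red point; the medians lie between -0.09 and 0.02.

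The genes most like each of the 9 in log2 CPM over the 8 libraries are given as a description, with the 2 of highest Pearson r among 11763 or 11764 tested genes; all share the same libraries and depths. For Ache these were Nek6 (r = 0.983, Spearman rho = 0.929) and Cyp20a1 (0.967, 0.905). For Bche they were Gfod1 (0.983, 0.976) and Mphosph9 (0.969, 0.952), and for Mgll Xrcc2 (0.970, 0.929) and Sema7a (0.966, 0.952). Pon2 was most like Capn1 (0.993, 0.952) and Sh2d3c (0.983, 0.952), and Pon3 most like Ppp1r16b (0.976, 0.976) and Tnfaip3 (0.969, 0.929). Pnpla7 was most like Tlk2 (0.976, 0.929) and Sgip1 (0.974, 0.905), and Lypla1 most like Arpp19 (0.957, 0.976) and Selt (0.956, 0.929). Pnpla6 had Zfp213 (0.963, 0.952) beside a gene listed as 03-Sep (0.965, 0.833). Faah reached Gm13225 (0.908, 0.762) and Osgepl1 (0.875, 0.738).

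Reads of 4 genes could be shared with overlapping annotations, as no strand setting of the counts is stated. On the opposite strand, Gm42456 covers 98 exon bases of Ache (2.12%) and Gm44424 covers 680 of Pon2 (9.27%). The antisense gene Gm26588 covers 167 of Mgll (3.29%), with 49 reads against 3408 for Mgll. Gm37988 covers 629 exon bases of Lypla1 (8.80%) on the same strand.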

How the data were processed

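The authors deposited 1 table for the 8 libraries with raw read counts per gene, a signal (counts over a constant of each library), FPKM values, and log2 fold changes with p-values, per the file headers. Per the submitters' processing notes, CASAVA 1.8, STAR 2.5, HTSeq 0.6.1, DESeq2 and the build mm10 were used, with no role stated. The test of the deposited counts was that of edgeR 4.0.16 under R 4.3.3 (filterByExpr, TMM, robust quasi-likelihood test, two-sided, Benjamini-Hochberg over all 15517 genes at 0.05), with group as the only term; CPM uses TMM-scaled totals. Its biological coefficient of variation was 0.161 (common dispersion 0.0259). The deposited signal was not used for a test, and FPKM only for levels. The authors' adjusted p-value is missing for 3933 genes of the deposited table and was kept missing. Libraries of a group always differed by more than sampling noise (lowest chi-square over degrees of freedom 4.80), so each counted once. The steps were checked on simulated data. There edgeR called 28 of 67 genes changed 1.5-fold, 47 of 67 changed 2-fold and 62 of 65 changed 4-fold. Of its 146 calls 9 were of unchanged genes.

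Genes and lists were chosen with earlier results of these data known. Named were the 10 genes, every gene of a list past the threshold and otherwise the 3 of smallest p, the 2 genes most like each, and overlapping genes; others in the text were chosen after their values were seen. Alternatives were other scalings (DESeq2 size factors, library totals), no filter or at least 1 CPM in 4 libraries, DESeq2 1.42.0, limma-voom (limma 3.58.1), the replicate number as a term, offsets for a gene-length spline, each library left out, and OPE 1 and OPE 3 left out.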

Additional observations from a re-analysis of the deposited data

Results flagged for a closer look

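Of 18 groups of 4 libraries examined, 9 genes in OPE and in vehicle, 1 held a library far from the others. Pnpla7 in OPE 1 was at 19.5 CPM, while OPE 2 to 4 lay between 15.0 and 15.2 CPM. The gap made up 0.947 of the group's range, above Dixon's critical value. Chance marks about 1 group in 20 in this way. Without OPE 1 the log2 fold change of Pnpla7 was 0.02, against 0.13 with all libraries, and neither passed in edgeR.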

How the results depend on the processing

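The count over all genes was 74 and became 131 with library totals, 136 without a filter, 504 with DESeq2, 322 with offsets for gene length, and 7 to 308 when 1 library was left out (58, 12, 308 and 178 without OPE 1 to 4, 8, 7, 19 and 7 without vehicle 1 to 4). Of the 9 genes 0 passed, and 1, Ache, passed with DESeq2, limma-voom and length offsets, and 0 to 1 when 1 library was left out, the 1 being without OPE 3; the causes were not tested. The sign turned for Pnpla6 (0.060 with length offsets, 0.044 without OPE 1 and OPE 3, 0.025 without OPE 3, -0.043 to 0.025 when 1 library was left out), Lypla1 (0.046 with length offsets, 0.053 without OPE 1, 0.0035 without OPE 2, -0.12 to 0.053 when 1 was left out) and Faah (-0.20 without OPE 1 and OPE 3, -0.035 without OPE 1, -0.047 without vehicle 3, -0.047 to 0.32 when 1 was left out), none of which passed in any fit. Ache, Bche, Pnpla7, Pon2, Pon3 and Mgll kept their sign in all 17 alternatives. The labels do not say whether the replicate numbers pair the libraries. Same-numbered libraries deviated together with correlations of 0.309, 0.0818, 0.0126 and 0.0918. Differently numbered libraries were not compared in this way, so these values cannot decide it. With the replicate number as a block 62 genes passed, 0 of the 9 among them, and Ache was at 0.55 (edgeR adjusted p = 0.0839). Bche and Faah had the fewest reads in total of the 9 genes, with 13 to 92 per library. How far depth or the spread between libraries widened their intervals was not tested.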
